A study of Mus musculus with 19 samples.

Results

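PIK3IP1, INPP4B, INPP5D, IRS2, FOXO1, FOXO3, SESN1, SESN3 and TXNIP are FOXO transcription factors, genes linked to FOXO activity and quiescence, and inhibitors or regulators of PI3K signalling. They were taken by symbol from a table of read counts per gene, as 9 of its 24982 genes, and all 9 were among the 11464 genes that passed the filter on low counts. Levels are given as CPM, the counts of a gene scaled to a common library total, and changes as log2 fold changes with their standard errors (SE), and a gene was called changed at an adjusted p under 0.05 (edgeR quasi-likelihood test, two-sided, Benjamini-Hochberg over the genes tested).

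RNA was sequenced from CD4+FoxP3-GFP+ regulatory T cells (Tregs) sorted by CD44 staining from lymph nodes that drain the injury site. The mice were of the Foxp3DTR strain, in which the Foxp3 locus carries the diphtheria toxin receptor with GFP, and were 8 to 16 weeks old per the study's methods. Injured mice had a scald burn of the shaved back, uninjured mice had the same handling with water at room temperature, and the Tregs of both were collected at day 7. Each library came from 50000 sorted cells. The 4 groups were CD44high Tregs of uninjured mice (n = 4), CD44high Tregs of injured mice (n = 4), CD44low Tregs of uninjured mice (n = 5) and CD44low Tregs of injured mice (n = 6), with 5582234 to 9433610 counts per library. The labels do not say which samples came from separate mice, so p-values measure the spread between these samples, which may in part be technical.

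Of the 6 injured CD44low libraries, 3 are labelled 1, 2 and 5, and 3 carry an added number (1_2, 4_2 and 5_2). The labels do not explain the added number, so that 1 and 1_2, and 5 and 5_2, may each be libraries of 1 sample, which would leave 4 samples in this group. With these pairs summed, the calls among the 9 genes were those given below, except that FOXO3 after injury in CD44low Tregs was lost (log2 -1.19, adjusted p = 0.0609) and FOXO1 after injury in CD44high Tregs passed (log2 -0.35, adjusted p = 0.0242). These sets stood apart for some of the genes. The comparisons between injured subsets and after injury in CD44low Tregs were therefore also fitted without each set, and the values are given for each called difference of the 9 genes and as counts for the related genes.

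The sort was visible in the counts. CD44 was 594 ± 37.5 CPM (SD, n = 4) in CD44high and 133 ± 16.1 CPM (SD, n = 5) in CD44low Tregs of uninjured mice, and 436 ± 54.5 (n = 4) and 117 ± 18.2 (n = 6) in those of injured mice. FOXP3, which defines Tregs, was 87.7 ± 11 CPM in CD44high and 115 ± 17.2 CPM in CD44low Tregs of uninjured mice, and its subset difference did not pass the test (log2 fold change -0.39, adjusted p = 0.186). In injured mice FOXP3 was 70.6 ± 20.6 and 103 ± 46.2 CPM, and the difference did not pass either (log2 -0.55, adjusted p = 0.0680). The injured CD44low libraries ran from 65.4 to 181 CPM of FOXP3. CD4 lay between 694 and 856 CPM in the group means and was called higher in CD44high Tregs of injured mice (log2 0.30, adjusted p = 0.0265). IL2RA, the CD25 chain of the IL-2 receptor, was lower in CD44high Tregs of uninjured (log2 -0.62, adjusted p = 0.00123) and of injured mice (log2 -0.82, adjusted p = 6.14e-05).

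Class I PI3K makes the membrane lipid PIP3 after stimulation through the T cell receptor, CD28 or cytokine receptors, and PIP3 brings the kinase AKT to the membrane. AKT phosphorylates FOXO1 and FOXO3, which then leave the nucleus, so that FOXO factors drive their target genes mainly in cells with little PI3K activity. PIK3IP1 inhibits the PI3K catalytic subunit, INPP4B and INPP5D (SHIP1) remove phosphates from inositol lipids, IRS2 is an adaptor that couples insulin and cytokine receptors to PI3K, SESN1 and SESN3 restrain mTORC1, and TXNIP binds thioredoxin and lowers glucose uptake.

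Promoter windows of RefSeq (build GRCm38.p6, 250 bases before to 50 after the start site) were found for 9 of 9 genes, in 10 windows, since SESN1 has 2. The FOXO core GTAAACA was searched on both strands. It was in 2 of the 10 windows, those of TXNIP and SESN1, and in 1199 of all 32851 windows of the table (3.65%). Both windows are shown because they hold the motif, with the motif in capitals, and that of PIK3IP1 is shown because its gene had the smallest p for injury in CD44low Tregs. In the TXNIP window the motif begins 121 bases before the start site, and in the SESN1 window it stands on the other strand, beginning at base 23 after it. A match describes letters only, and binding was not measured.
TXNIP, chr3:96557707-96558006, + strand: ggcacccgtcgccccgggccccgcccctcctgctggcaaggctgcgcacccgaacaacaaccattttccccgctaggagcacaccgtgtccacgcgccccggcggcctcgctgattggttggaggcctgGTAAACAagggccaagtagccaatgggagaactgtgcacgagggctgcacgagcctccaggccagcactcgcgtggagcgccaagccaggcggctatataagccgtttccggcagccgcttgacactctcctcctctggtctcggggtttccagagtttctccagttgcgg
SESN1, chr10:41810324-41810623, + strand: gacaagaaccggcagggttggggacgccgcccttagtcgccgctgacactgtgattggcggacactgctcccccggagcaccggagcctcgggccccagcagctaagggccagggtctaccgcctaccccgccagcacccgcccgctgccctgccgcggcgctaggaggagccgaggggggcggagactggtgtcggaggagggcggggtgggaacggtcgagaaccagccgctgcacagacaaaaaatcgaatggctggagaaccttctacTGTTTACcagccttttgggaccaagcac
PIK3IP1, chr11:3330481-3330780, + strand, without the motif: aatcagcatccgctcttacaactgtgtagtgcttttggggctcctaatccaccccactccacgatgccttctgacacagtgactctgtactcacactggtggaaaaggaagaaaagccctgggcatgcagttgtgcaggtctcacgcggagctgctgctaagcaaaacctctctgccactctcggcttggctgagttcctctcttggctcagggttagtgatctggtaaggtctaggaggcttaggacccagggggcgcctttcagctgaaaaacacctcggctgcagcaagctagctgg

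Subset comparisons asked which of the 9 genes separate CD44high from CD44low Tregs. In uninjured mice 6 were lower in CD44high Tregs (PIK3IP1, INPP4B, IRS2, FOXO1, FOXO3 and TXNIP) and SESN1 was higher, where 21.3% of all genes tested were called lower and 24.7% higher. In injured mice 5 were lower (PIK3IP1, INPP4B, IRS2, FOXO1 and TXNIP), against 17.2% of all genes, and 0 were higher, against 20.1%. At an unadjusted p under 1e-06 with a 2-fold change only PIK3IP1 passed among the 9 genes, in uninjured mice (8.30% of all genes) and in injured mice (6.0%). The median log2 fold change of the 9 genes was -0.87 in uninjured and -0.46 in injured mice, beside 0.01 and -0.00055 over all genes tested. In bulk samples, fewer cells that express a gene and less RNA per cell cannot be told apart.

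Injury comparisons asked how the same genes differed at day 7 within each subset. In CD44low Tregs PIK3IP1 and SESN1 were higher after injury, and FOXO1, FOXO3, INPP4B and IRS2 were lower, where 4.24% of all genes were called higher and 3.36% lower. In CD44high Tregs PIK3IP1 was higher and IRS2 lower, against 1.06% and 1.33% of all genes. At a p under 1e-06 with a 2-fold change, PIK3IP1 passed in CD44low Tregs (0.122% of all genes) and 0 of the 9 passed in CD44high Tregs (0.148%). The median log2 fold change of the 9 genes after injury was 0.19 in CD44high and -0.07 in CD44low Tregs, beside -0.02 and 0.01 over all genes, since the genes did not share a direction. The injury and subset comparisons share libraries, so they are not independent of each other.

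**Figure D1:**
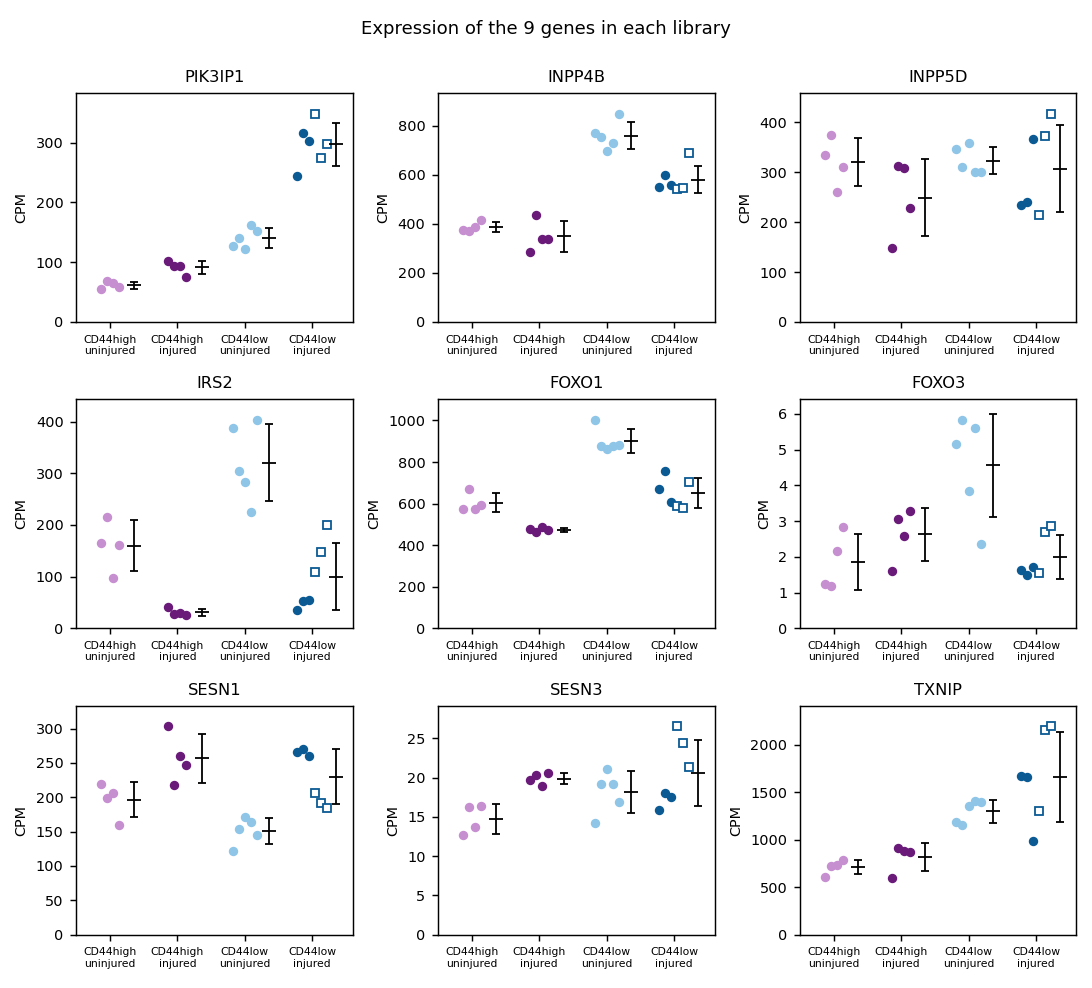
Expression (CPM, linear axis from 0) of each of the 9 genes in the 19 libraries by group, 1 point per library, with the mean and SD beside the points; open squares are the injured CD44low libraries 1_2, 4_2 and 5_2. The group means of PIK3IP1 go from 61.7 CPM in uninjured CD44high to 297 CPM in injured CD44low Tregs, while IRS2 is lowest in injured CD44high Tregs, at 30.5 CPM.

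**Figure D2:**
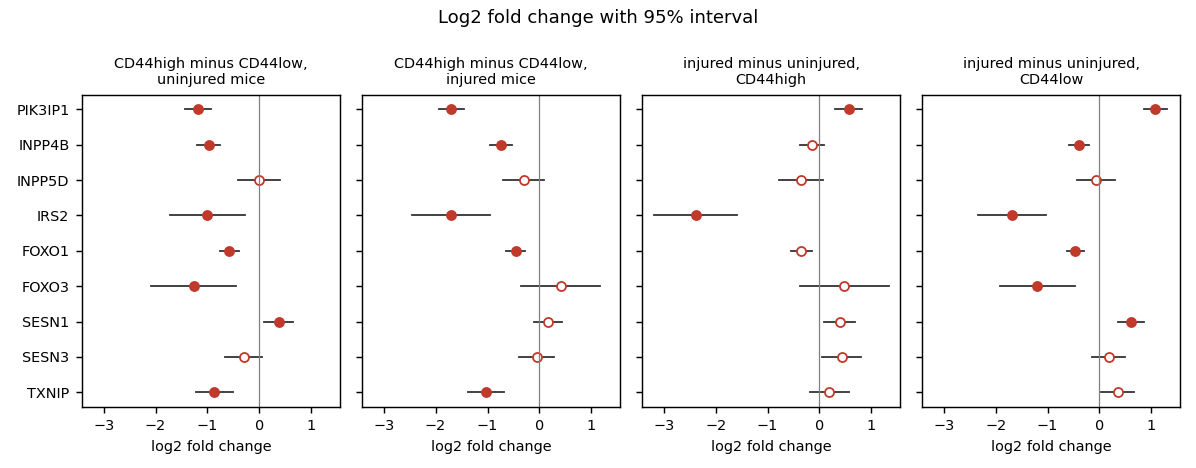
Log2 fold change (x axis) of each gene with its 95% interval in the 4 comparisons; filled points have an adjusted p under 0.05 (edgeR). PIK3IP1 is lower in CD44high Tregs and higher after injury in both subsets, and IRS2 has the lowest value in each injury panel.

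PIK3IP1 had 4 levels, one for each group. The 4 uninjured CD44high libraries held 55.6, 68.1, 64.5 and 58.4 CPM (mean 61.7 ± 5.68 SD), and the 4 injured CD44high libraries 102, 93.6, 93.7 and 75.9 CPM (mean 91.2 ± 10.9). The 5 uninjured CD44low libraries held 127, 139.8, 122, 162 and 152 CPM (mean 140.5 ± 16.8), and the 6 injured CD44low libraries ran from 245 to 348 CPM with a median of 299.7 (mean 297 ± 35.3). No group overlapped any other, and the highest injured CD44high library stayed below the lowest uninjured CD44low library. Each neighbouring pair in this order differed, also the injured CD44high and uninjured CD44low groups (log2 fold change -0.62, adjusted p = 0.000132).

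After injury PIK3IP1 was 2.11-fold higher in CD44low Tregs (log2 fold change 1.08, SE 0.11, adjusted p = 4.82e-06), the smallest p of the 11464 genes tested. In CD44high Tregs it was 1.48-fold higher (log2 0.57, SE 0.12, adjusted p = 0.0123). Between subsets it was 2.28-fold lower in CD44high Tregs of uninjured mice (log2 -1.19, SE 0.12, adjusted p = 2.16e-08) and 3.26-fold lower in those of injured mice (log2 -1.70, SE 0.12, adjusted p = 4.72e-11). All 4 differences were called under all 31 other settings that were tried, and the change in CD44low Tregs stayed between 1.03 and 1.16. Without libraries 1_2, 4_2 and 5_2 and without 1, 2 and 5, the change in CD44low Tregs was 1.03 and 1.15, and the difference between injured subsets -1.66 and -1.77. The injured CD44low libraries 1, 2 and 5 averaged 288 CPM, and 1_2, 4_2 and 5_2 averaged 307 CPM.

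INPP4B and INPP5D, the lipid phosphatases, did not behave alike. INPP4B, which takes the 4-phosphate from PI(3,4)P2, held 374, 372, 386 and 415 CPM in uninjured CD44high libraries (mean 387 ± 19.9) and 287, 435, 338 and 339 CPM in injured ones (mean 349.5 ± 62.2). In CD44low Tregs it held 771, 755, 696, 732 and 849 CPM without injury (mean 761 ± 57.0), and 541 to 688 CPM with a median of 555 after injury (mean 581 ± 56.1). All CD44high libraries lay below all CD44low libraries, and each injured CD44low library lay below each uninjured one.

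INPP4B was 1.97-fold lower in CD44high Tregs of uninjured mice (log2 -0.98, SE 0.11, adjusted p = 7.72e-08) and 1.66-fold lower in those of injured mice (log2 -0.73, SE 0.10, adjusted p = 4.41e-06). After injury it was 1.31-fold lower in CD44low Tregs (log2 -0.39, SE 0.09, adjusted p = 0.0156). That call was lost when libraries 1, 2 and 5 were left out (log2 -0.34, adjusted p = 0.104) and kept in the other 30 settings, among them without 1_2, 4_2 and 5_2 (log2 -0.42, adjusted p = 0.0116). The difference between injured subsets was -0.78 and -0.70 without these sets, and called in both. In CD44high Tregs the injury difference did not pass the test (log2 -0.15, 95% interval -0.37 to 0.08, adjusted p = 0.587).

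INPP5D, which takes the 5-phosphate from PIP3, held 334, 375, 261 and 311 CPM in uninjured and 149, 312, 308 and 228 CPM in injured CD44high libraries. In CD44low Tregs it held 346, 310.1, 358, 301 and 301 CPM without injury and 214 to 417 CPM, median 304, after injury. The groups overlapped in every pair, and the spread of the injured groups (SD 77.2 CPM in CD44high, 87.5 in CD44low) exceeded that of the uninjured groups (47.5 and 27.1). No comparison of INPP5D was called. In uninjured mice the subset difference was -0.01 (95% interval -0.42 to 0.39), and in injured mice it was -0.30 (-0.69 to 0.09).

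In CD44high Tregs IRS2 had the largest injury difference of the 9 genes. The uninjured CD44high libraries held 165, 216, 96.5 and 161 CPM (mean 159.7 ± 49.0) and the injured ones 40.3, 26.8, 28.8 and 26.3 CPM (mean 30.5 ± 6.61). The uninjured CD44low libraries held 388, 304, 282, 226 and 403 CPM (mean 321 ± 74.2). The injured CD44low libraries held 35.5, 52.0 and 54.9 CPM in libraries 1, 2 and 5, and 109, 147 and 201 CPM in 1_2, 4_2 and 5_2. In both subsets every injured library lay below every uninjured library of that subset, and the sets of injured CD44low libraries did not overlap.

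In CD44high Tregs IRS2 was 5.23-fold lower after injury (log2 -2.39, SE 0.39, adjusted p = 0.000898). In CD44low Tregs it was 3.22-fold lower (log2 -1.69, SE 0.31, adjusted p = 0.00299). The size in CD44low Tregs depended on the set of libraries. It was -2.75 without 1_2, 4_2 and 5_2, and -1.05 without 1, 2 and 5, less than the 1.15 of PIK3IP1 in the same libraries, and the call held in all 31 settings. Between subsets IRS2 was 2.01-fold lower in CD44high Tregs of uninjured mice (log2 -1.01, SE 0.35, adjusted p = 0.0215), a call lost without CD44high library 4 (log2 -0.83, adjusted p = 0.0829). In injured mice it was 3.26-fold lower (log2 -1.71, SE 0.36, adjusted p = 0.000628), although library 1 of the CD44low group, at 35.5 CPM, fell within the CD44high range. This subset difference was -0.64 without 1_2, 4_2 and 5_2 (adjusted p = 0.0439) and -2.34 without 1, 2 and 5 (adjusted p = 2.60e-07).

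The counts of IRS2 may include reads of another gene. In GENCODE vM21, IRS2 shares 162 of its 6323 exonic bases with a RIKEN cDNA gene on the opposite strand, and the library kit is not described as marking strand. That gene had 15.2 counts per 100 of IRS2 over all libraries, between 9.21 and 19.1 in single libraries, and its pattern over the 19 libraries was the nearest to that of IRS2. Reads of the 2 genes cannot be told apart in the shared bases.

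FOXO1 and FOXO3 are the FOXO factors of the set, and FOXO1 was far more abundant. The uninjured CD44high libraries held 574, 670.1, 573 and 595 CPM of FOXO1 (mean 603 ± 45.8), and the injured ones 478, 461, 486 and 471 CPM (mean 474 ± 10.5). The uninjured CD44low libraries held 1002, 879, 861, 875 and 883 CPM (mean 900.0 ± 57.6), and the injured ones 579 to 756 CPM with a median of 639 (mean 651 ± 71.7). Within each subset the injured and uninjured libraries did not overlap. The injured CD44low group overlapped the uninjured CD44high group, and these did not differ beyond their spread (log2 -0.11, adjusted p = 0.324).

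FOXO1 was 1.49-fold lower in CD44high Tregs of uninjured mice (log2 -0.58, SE 0.09, adjusted p = 1.50e-05) and 1.37-fold lower in those of injured mice (log2 -0.46, SE 0.09, adjusted p = 0.000211). After injury it was 1.38-fold lower in CD44low Tregs (log2 -0.47, SE 0.08, adjusted p = 0.00165), and these 3 calls held in all 31 settings. Without 1_2, 4_2 and 5_2 and without 1, 2 and 5, the change after injury was -0.41 and -0.50, and the difference between injured subsets -0.52 and -0.42. In CD44high Tregs the injury difference was -0.35 (SE 0.09) and missed the threshold narrowly (adjusted p = 0.0506). It passed in 9 of 31 other settings, with an adjusted p of 0.00942 by DESeq2. FOXO1 shares 7.78% of its exonic bases with Gm20402 on the opposite strand in GENCODE vM21, and PIK3IP1 shares 2.13% with Gm12592. Neither Gm20402 nor Gm12592 was among the genes counted, so their reads could not be set beside those of FOXO1 and PIK3IP1.

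FOXO3 was measured on 7 to 39 counts per library, the least of the 9 genes, which limits its precision. CD44high libraries held 1.25, 1.19, 2.17 and 2.82 CPM without injury and 1.59, 3.07, 2.58 and 3.27 CPM after it. Uninjured CD44low libraries held 5.15, 5.82, 3.83, 5.6 and 2.36 CPM (mean 4.55 ± 1.45), and injured ones 1.49 to 2.85 CPM with a median of 1.67 (mean 1.99 ± 0.613). The uninjured CD44low group stood highest, with library 5 within the range of the other groups.

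In uninjured mice FOXO3 was 2.41-fold lower in CD44high Tregs (log2 -1.27, SE 0.39, adjusted p = 0.0112), and in injured mice the subset difference was 0.41 (95% interval -0.36 to 1.18, adjusted p = 0.408). After injury FOXO3 was 2.29-fold lower in CD44low Tregs (log2 -1.20, SE 0.35, adjusted p = 0.0375). This call was lost in 13 of 30 other settings, with an adjusted p of 0.0645 with the replicate block and 0.230 without libraries 1, 2 and 5 (log2 -0.91). Without 1_2, 4_2 and 5_2 it was -1.49 (adjusted p = 0.0279). Leaving out any of 8 single CD44low libraries also lost it, with values from -1.23 to -1.07 and adjusted p-values from 0.0531 to 0.0838.

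SESN1 and SESN3 encode sestrins, which bind GATOR2 and hold back mTORC1 when leucine or other nutrients are low. SESN1 held 219, 199, 206 and 160.1 CPM in uninjured CD44high libraries (mean 196 ± 25.4) and 303, 218, 259.5 and 247 CPM in injured ones (mean 257 ± 35.5). In CD44low libraries it held 122, 154, 171, 164 and 145 CPM without injury (mean 151 ± 19.3). After injury, libraries 1, 2 and 5 held 267, 270.4 and 260.5 CPM and 1_2, 4_2 and 5_2 held 206, 192 and 184 CPM (mean of the 6 libraries 229.8 ± 40.1). Every injured CD44low library was above every uninjured one, and the CD44high groups overlapped by a single pair of libraries.

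SESN1 was 1.52-fold higher after injury in CD44low Tregs (log2 0.61, SE 0.12, adjusted p = 0.00591). The change was 0.81 without 1_2, 4_2 and 5_2 and 0.38 without 1, 2 and 5, where the call was lost (adjusted p = 0.0910). In CD44high Tregs the difference was 0.39 (SE 0.14, 95% interval 0.09 to 0.69) and did not pass after adjustment (adjusted p = 0.171). In uninjured mice SESN1 was 1.30-fold higher in CD44high Tregs (log2 0.37, SE 0.14, adjusted p = 0.0273). That call was lost in 6 of 31 other settings, among them library totals without TMM factors (log2 0.33, adjusted p = 0.0549) and each of 5 single libraries left out, with values from 0.30 to 0.36 and adjusted p-values from 0.0578 to 0.106. In injured mice the subset difference was 0.16 (adjusted p = 0.351). It turned to -0.049 without 1_2, 4_2 and 5_2 (adjusted p = 0.805), and it passed only without libraries 1, 2 and 5 (log2 0.38, adjusted p = 0.0301).

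SESN3 was low, at 12.6 to 26.5 CPM. It held 12.6, 16.3, 13.7 and 16.3 CPM in uninjured and 19.6, 20.3, 19 and 20.5 CPM in injured CD44high libraries, which did not overlap, but the difference did not pass after adjustment (log2 0.43, SE 0.18, adjusted p = 0.246). In CD44low Tregs it held 14.2, 19.2, 21.1, 19.2 and 16.9 CPM without injury, and after injury 15.9, 18.0 and 17.5 CPM in libraries 1, 2 and 5 and 26.5, 24.4 and 21.3 CPM in 1_2, 4_2 and 5_2. SESN3 was called in none of the 4 comparisons under any setting tried.

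TXNIP was the most abundant of the 9 genes, both in CPM and per kilobase of transcript. The uninjured CD44high libraries held 607, 726, 732 and 791 CPM (mean 714 ± 76.8) and the injured ones 595, 913, 878 and 876 CPM (mean 816 ± 148). The uninjured CD44low libraries held 1193, 1153, 1361, 1408 and 1402 CPM (mean 1303 ± 121). The injured CD44low libraries held 1676, 1663 and 990.4 CPM in 1, 2 and 5 and 1301, 2161 and 2196 CPM in 1_2, 4_2 and 5_2 (mean of 6 libraries 1664 ± 472). All CD44low libraries lay above all CD44high libraries, and injured libraries overlapped uninjured ones in both subsets.

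TXNIP was 1.82-fold lower in CD44high Tregs of uninjured mice (log2 -0.87, SE 0.17, adjusted p = 0.000289) and 2.04-fold lower in those of injured mice (log2 -1.03, SE 0.17, adjusted p = 3.98e-05), in all 31 settings. The difference between injured subsets was -0.82 without 1_2, 4_2 and 5_2 and -1.24 without 1, 2 and 5. Injury differences did not pass the test, at 0.19 in CD44high (adjusted p = 0.678) and 0.35 in CD44low Tregs (adjusted p = 0.151). In CD44low Tregs the difference passed without libraries 1, 2 and 5 (log2 0.56, adjusted p = 0.0441) and without library 5 alone (log2 0.49, adjusted p = 0.0286). TXNIP shares 606 of its 3123 exonic bases, 19.4%, with GM15441 on the opposite strand in GENCODE vM21. GM15441 had 23.2 counts per 100 of TXNIP, between 20.1 and 24.1 in single libraries, and reads of the pair cannot be told apart in the shared bases.

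**Figure D3:**
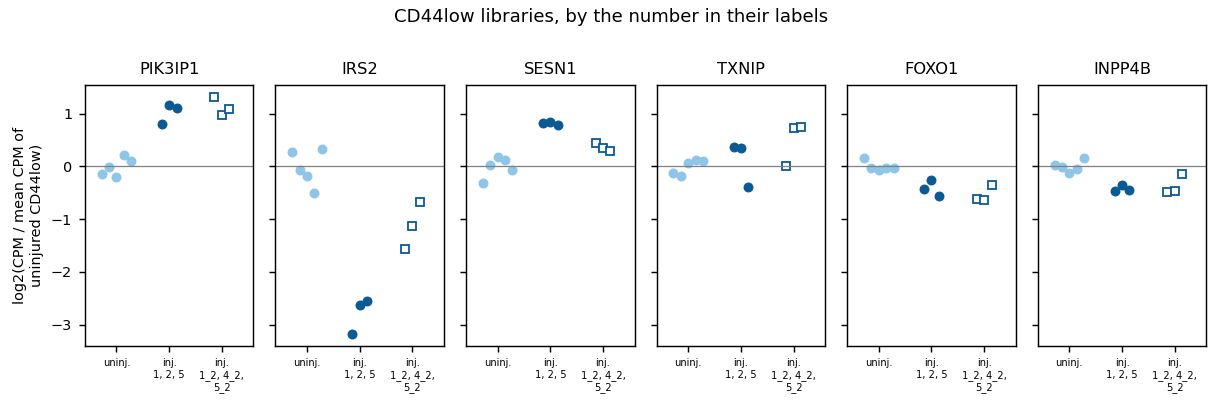
Log2 ratio of CPM to the mean of uninjured CD44low libraries (y axis) for 6 genes in uninjured libraries, injured libraries 1, 2 and 5, and injured libraries 1_2, 4_2 and 5_2 (open squares), 1 point per library. The sets of injured libraries overlap for PIK3IP1, TXNIP, FOXO1 and INPP4B and do not overlap for IRS2 and SESN1.

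The interaction asked whether the injury difference itself differed between subsets, as the change in CD44high minus that in CD44low Tregs. By edgeR 0 of the 9 genes were called, where 0.192% of all genes were called with a higher and 0.454% with a lower value in CD44high Tregs, and DESeq2 also called 0. At an unadjusted p under 0.05, 2 genes passed. PIK3IP1 had an interaction of -0.51 (SE 0.16, adjusted p = 0.168), from a rise of 0.57 in CD44high and 1.08 in CD44low Tregs. FOXO3 had one of 1.68 (SE 0.54, adjusted p = 0.178). For IRS2 the interaction was -0.70 (95% interval -1.71 to 0.30, adjusted p = 0.645), and it ran from 0.36 without 1_2, 4_2 and 5_2 to -1.33 without 1, 2 and 5, where it was called (adjusted p = 0.0446). An injury change called in only a single subset is therefore not shown to differ between subsets.

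Per kilobase of the longest GENCODE vM21 transcript, averaged over the 4 groups, TXNIP stood at 398 CPM per kb. FOXO1 followed at 75.8, INPP4B at 64.4, INPP5D at 60.8, PIK3IP1 at 57.4 and SESN1 at 54.7, a narrow range. IRS2 was at 24.1, SESN3 at 2.01 and FOXO3 at 0.403 CPM per kb. With the median transcript length in place of the longest, 5 of the 9 genes kept their place in this order, among them TXNIP at the top and IRS2, SESN3 and FOXO3 at the bottom, while PIK3IP1 moved to place 2 and FOXO1 to place 6.

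Markers of other cells were low but not equal between groups. Markers of macrophages and dendritic cells (LYZ2, CSF1R, CD14, ADGRE1, ITGAX and FLT3, of which 5 of 6 passed the filter) summed to 64.2 to 134 CPM in uninjured and 81.3 to 222 CPM in injured CD44high libraries. They summed to 19.7 to 37.2 CPM in uninjured and 31.5 to 142 CPM in injured CD44low libraries, with LYZ2 as the most abundant. B cell markers summed to 70.2 to 206 CPM over the 19 libraries, led by CD79B, and their ranges overlapped between all groups. Neutrophil markers, of which 2 of 5 passed the filter, summed to 0 to 0.178 CPM in uninjured and 1.06 to 19 CPM in injured CD44high libraries, which did not overlap. In CD44low libraries they ran from 0 to 1.69 CPM with a median of 0 without injury, and from 0 to 28.9 CPM with a median of 2.19 after it. S100A8 was the most abundant in each group, and ELANE was at 0 in all libraries. CD8 and NK cell markers summed to 46.3 to 72.6 CPM, led by CD8B1, with KLRA8 at 0 throughout. The stroma and endothelium list, of which 2 of 6 passed the filter, was nearly all PECAM1, with PDGFRA and PDPN at 0. Its sum therefore gives the level of PECAM1 and is not a measure of stroma or endothelium. The list summed to 59.3 to 73.0 CPM in uninjured and 78.4 to 114 CPM in injured CD44high libraries. These sums lay below the 186 to 219 CPM in uninjured and 135 to 230.4 CPM in injured CD44low libraries. The subsets did not overlap, and the uninjured and injured CD44high libraries did not overlap. HBA-A1 and HBB-BS were at 0. The part of these cells in the differences above was not tested.

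Other genes of the pathway were taken from 8 lists with 128 genes, of which 117 were tested. In uninjured mice 30 of them were higher and 36 lower in CD44high Tregs, and in injured mice 26 were higher and 30 lower. After injury 4 were higher and 0 lower in CD44high Tregs, and 7 higher and 6 lower in CD44low Tregs. These 13 genes became 23 without library 5_2 (13 higher, 10 lower), 28 without 1_2, 4_2 and 5_2 (12 higher, 16 lower) and 9 without 1, 2 and 5 (7 higher, 2 lower). The share of all genes called moved the same way, from 7.6% to 16.5%, 15.1% and 3.85%. Between injured subsets the counts were 24 higher and 26 lower without 1_2, 4_2 and 5_2, and 19 higher and 34 lower without 1, 2 and 5, where 18.2% and 12.7%, and 18.2% and 18.6%, of all genes were called. All-gene shares for all libraries are those given above.

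Of 8 class I PI3K genes tested, 4 were lower and 0 higher in CD44high Tregs, in uninjured and in injured mice (list medians -0.48 and -0.43). Between injured subsets 4 were lower and 1 higher without libraries 1_2, 4_2 and 5_2, and 4 lower and 0 higher without 1, 2 and 5. PIK3CD, the catalytic subunit p110δ that predominates in lymphocytes, was 309 ± 15.9 CPM in CD44high and 706 ± 55.0 CPM in CD44low Tregs of uninjured mice (log2 -1.19, adjusted p = 3.41e-06). PIK3R5 (-1.15), a regulatory subunit of p110γ, and PIK3R1 (-0.66), the p85α subunit, were also lower. In CD44low Tregs PIK3R3 was lower after injury (log2 -1.10, adjusted p = 0.0289), a call lost without 1, 2 and 5 (log2 -0.90, adjusted p = 0.177). Among other lipid phosphatases and PI3K inhibitors, INPP4A was lower in CD44high Tregs of uninjured mice (log2 -1.16, adjusted p = 0.000207), as was INPP5F (-0.43), while 0 of 11 were higher. INPP5B, an inositol 5-phosphatase, was the 1 gene of that list called after injury in CD44high Tregs, at 144 ± 13.4 CPM without and 223 ± 23.3 CPM with injury (log2 0.63, adjusted p = 0.00343).

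Of 24 genes of the AKT and mTORC1 arm, 5 were higher and 12 lower in CD44high Tregs of uninjured mice, with a median of -0.36. Between the injured subsets 5 were higher and 6 lower, and the median was -0.19. The related kinases SGK1 and SGK3, which share targets with AKT, went in opposite directions. In uninjured mice SGK1 was 94.6 ± 6.12 CPM in CD44high and 25.3 ± 6.16 CPM in CD44low Tregs (log2 1.90, adjusted p = 7.37e-09). SGK3 was 11.7 ± 2.95 and 53.7 ± 7.07 CPM in the same groups (log2 -2.20, adjusted p = 1.66e-09). Also in uninjured mice, AKT1 (0.61) and EIF4EBP1 (1.35), the translation repressor that mTORC1 switches off, were higher in CD44high Tregs. RPS6 (-0.89) and EIF4EBP2 (-0.63) were lower there. After injury EIF4EBP1 was higher in CD44low Tregs (0.65) and EIF4EBP2 (-0.67), GSK3B (-0.51) and TSC1 (-0.77) were lower, while 0 of 24 were called in CD44high Tregs. Without libraries 1, 2 and 5 the 3 lower values were -0.55, -0.46 and -0.68 and did not pass (adjusted p = 0.0727, 0.0721 and 0.188). Without 1_2, 4_2 and 5_2 that of EIF4EBP1 was 0.43 and did not pass (adjusted p = 0.0860).

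SESN2, the sestrin outside the 9 genes, was 52.4 ± 5.70 CPM in CD44high and 17.6 ± 4.65 CPM in CD44low Tregs of uninjured mice (log2 1.57, adjusted p = 2.14e-06), and it was also higher in injured mice (1.67). The sestrin and GATOR list as a whole had 5 of 21 genes higher and 6 lower in uninjured mice. After injury RRAGA, a GTPase that recruits mTORC1 to lysosomes, was lower in CD44low Tregs (log2 -0.70, adjusted p = 0.0157), a call lost without 1, 2 and 5 (log2 -0.55, adjusted p = 0.0826). Of 14 arrestin and thioredoxin genes, 3 were higher in CD44high Tregs of uninjured mice, TXN1 (0.74), TXNRD1 (0.42) and ARRDC1 (0.55), and ARRB1 (-1.16) and ARRB2 (-0.46) were lower, and 0 were called after injury in either subset. TXN1 is the thioredoxin that TXNIP binds.

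Of 9 insulin receptor and adaptor genes, 4 were higher and 2 lower in CD44high Tregs of uninjured mice. IGF1R was 13.8 ± 4.61 CPM in CD44high and 51.1 ± 6.37 CPM in CD44low Tregs (log2 -1.87, adjusted p = 7.86e-07), the same direction as IRS2. PIK3AP1 (1.48), DOK2 (0.74) and GRB2 (0.38) were higher and SH2B3 (-1.0) lower. After injury the list held 1 called gene, DOK2, which was higher in CD44low Tregs (log2 0.58, adjusted p = 0.00343) and was called without either set of injured libraries.

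The list of genes known as FOXO targets or linked to FOXO activity did not move one way. Of 29 tested, 13 were higher and 8 lower in CD44high Tregs of uninjured mice, and 8 higher and 9 lower in injured mice. CTLA4, an inhibitory receptor, was 1050.5 ± 74.6 CPM in CD44high and 210.4 ± 26.4 CPM in CD44low Tregs of uninjured mice (log2 2.32, adjusted p = 4.66e-13), and GADD45B (1.54) and IL7R (1.35) were also higher. The lymph node homing receptor CCR7 (-1.71) and the transcription factor TCF7 (-1.91) were lower.

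After injury the FOXO-linked list held 3 genes called higher and 0 lower in CD44high Tregs, and 5 higher and 1 lower in CD44low Tregs. In CD44high Tregs TCF7 went from 323 ± 24.2 to 491 ± 18.3 CPM (log2 0.60, adjusted p = 0.000328). In CD44low Tregs IL7R went from 135 ± 20.9 to 328 ± 83.5 CPM (log2 1.28, adjusted p = 1.72e-05), and CTLA4 (0.73) and IFNGR1 (0.76) were higher and CDKN1B (-0.46), a cell cycle inhibitor, lower. Of these 4 genes, CDKN1B lost its call without libraries 1, 2 and 5 (log2 -0.33, adjusted p = 0.250), and the other calls were made without either set. For the interaction 4 genes of this list were called. Among them TCF7 (0.70, adjusted p = 0.00321) had the larger value in CD44high Tregs, and IL7R (-1.23, adjusted p = 0.00416) and BBC3 (-1.32, adjusted p = 0.0223) had it in CD44low Tregs.

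**Figure D4:**
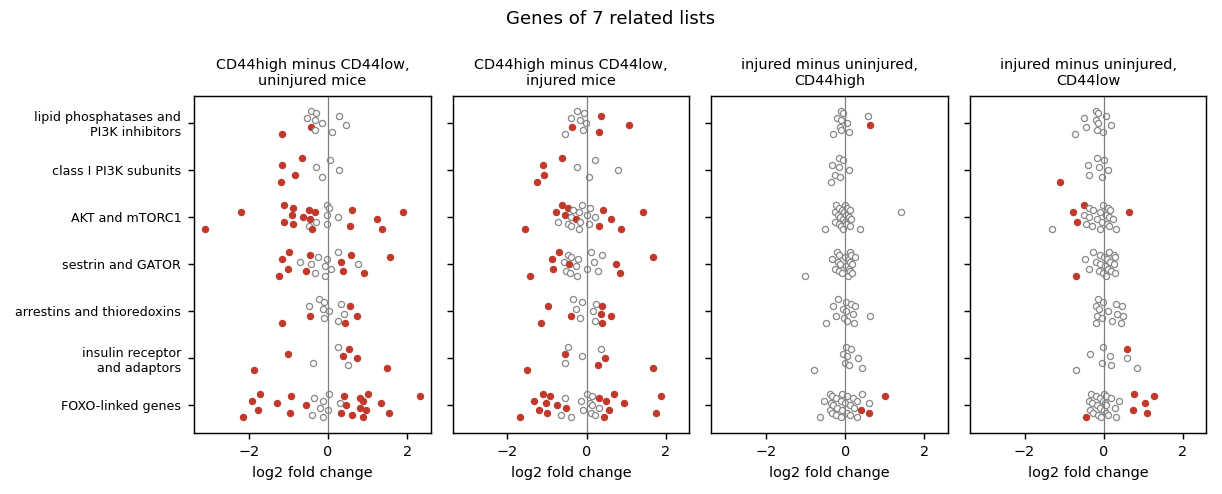
Log2 fold change (x axis) of each tested gene in 7 related lists in the 4 comparisons; filled points have an adjusted p under 0.05 (edgeR), and vertical offsets only separate points. Class I PI3K subunits that were called lie below 0 in both subset panels, and FOXO-linked genes lie on both sides, 13 higher and 8 lower in uninjured mice.

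For the 4 genes called with at least a 2-fold change between subsets, the 3 genes of nearest pattern were found by the root mean square difference of centred log2 CPM over the 19 libraries. Those of PIK3IP1 were ACP5 (0.35), RFLNB (0.35) and NCOA7 (0.35). ACP5 shared the subset difference in uninjured mice (-1.28) but had an injury difference of 0.41 in CD44low Tregs, beside 1.08 for PIK3IP1. None of the 3 remained among the nearest when libraries 1_2, 4_2 and 5_2 were left out. Those of FOXO3 were RALY (0.34), ELF2 (0.35) and LSM14B (0.36), of which 1 remained. Those of IRS2 after the RIKEN gene on its opposite strand (0.22) were JMY (0.47) and JUN (0.50), and those of TXNIP after GM15441 (0.06) were CYTIP (0.22) and RGS1 (0.24). JUN, a subunit of the AP-1 factor, had injury differences of -1.33 in CD44high and -1.28 in CD44low Tregs, beside -2.39 and -1.69 for IRS2.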

How the data were processed

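The authors sequenced bulk RNA of sorted Tregs (SMART-Seq v4 cDNA, Swift 2S libraries) and deposited raw counts per gene for 19 libraries, with replicates kept apart and no normalization. Reads were processed through the VIPER workflow. The submitters' processing notes name bcl2fastq 2.18, STAR 2.5 and the builds mm9 and mm10, and the build of these counts was not given in the sources used. Library totals were 5582234 to 9433610 counts, and all columns were mapped by their labels. Symbols stand as in the table.

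Counts were fitted with edgeR 4.0.16 (R 4.3.3, limma 3.58.1) on all 19 libraries, with a minimum count of 10 in edgeR's filter, TMM factors and 1 mean per group, without a block. Contrasts were tested by the quasi-likelihood test with Benjamini-Hochberg adjustment over 11464 genes. CPM used TMM-normalised totals, and log2 CPM for likeness a prior count of 2. The study's threshold was read as an unadjusted p. The code was tested on simulated data. Alternatives were DESeq2 1.42.0, the compared groups alone, other normalisations and filters, robust dispersion, a replicate block, the added-number libraries summed or left out, and each library left out.

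The 9 genes and all lists were chosen with earlier results of these data known. Named list genes are, per list, comparison and direction, up to 3 called genes of smallest p, and every gene called for the interaction, except that 1 of these is not reported here. Names and lengths came from GENCODE vM21 and promoters from RefSeq (GRCm38.p6). Figures were drawn with matplotlib 3.10.9.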

Additional observations from a re-analysis of the deposited data

Results flagged for a closer look

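In the 36 groups of values tested (9 genes in 4 groups), 2 libraries stood far from the others of their group for 1 gene. FOXO1 was 1002 CPM in uninjured CD44low library 1, the highest of its group, where the next was 883 CPM. TXNIP was 595 CPM in injured CD44high library 2, the lowest of its group, where the next was 876 CPM. Chance flags about 1 in 20 such groups.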

How the results depend on the processing

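The precision is limited by 4 to 6 libraries per group and, for FOXO3, by 7 to 39 counts per library. The added number of 3 injured CD44low libraries is unexplained. Values of comparisons that use the injured CD44low group moved when either set was left out, as listed below, and the cause was not tested. Scaling by RLE factors, upper quartiles or library totals moved the median of all genes by at most 0.0456 (log2) in every comparison.

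With libraries 1_2, 4_2 and 5_2 left out, SESN1 between subsets of injured mice turned to -0.049 and SESN3 to 0.21, SESN3 after injury in CD44low Tregs turned to -0.079, and the interactions of IRS2 and TXNIP turned to 0.36 and 0.045. List genes called after injury in CD44low Tregs went from 13 to 28, and the share of all genes called from 7.6% to 15.1%. With libraries 1, 2 and 5 left out, INPP5D after injury in CD44low Tregs turned to 0.075 and the interaction of SESN1 to 0.020, and the interaction called 1 of the 9 genes and 7 list genes, beside 1.18% of all genes (0.645% with all libraries). On the compared groups alone, 7 list genes were called after injury in CD44high Tregs, beside 4.

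At a p under 1e-06 with a 2-fold change, the genes called in the 4 comparisons were 1, 1, 0 and 1, and a 2-fold change required beside the adjusted p gave 3, 3, 1 and 3. Without a fold limit they were 7, 5, 2 and 6. With median transcript lengths, 5 of 9 genes kept their place in the order of levels.

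With each library left out in turn, list genes called after injury in CD44low Tregs ran from 9 to 23 (23 without 5_2), INPP5D between subsets of uninjured mice from -0.11 to 0.074, INPP5D after injury in CD44low Tregs from -0.16 to 0.019, and SESN3 between subsets of injured mice from -0.14 to 0.033. The genes called among the 9 ran from 5 to 7, 5 to 5, 2 to 3 and 5 to 6 in the 4 comparisons.

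Over the whole table, 273 genes were called after injury in CD44high Tregs, beside 476 by DESeq2, 601 on the compared groups alone, 476 with libraries summed, 581 without 1_2, 4_2 and 5_2, and 152 to 344 with a library left out. In CD44low Tregs 871 were called, beside 1451 by DESeq2, 464 on the compared groups alone, 445 without 1, 2 and 5, 1749 without 1_2, 4_2 and 5_2, and 510 to 1893 (1893 without 5_2). For the interaction 74 were called, beside 217 by DESeq2, 314 without 1_2, 4_2 and 5_2, 136 without 1, 2 and 5, and 43 to 110 with a library left out.

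Correlations of same-numbered libraries ran from -0.12 to 0.17. Between the uninjured subsets they ran from -0.0068 to 0.12, beside -0.080 to 0.039 for differently numbered libraries. Differently numbered libraries of the injured subsets ran from -0.45 to 0.41. With 4 to 6 libraries per group these values cannot decide whether equal numbers mark paired samples. With the replicate block, 7, 5, 2, 5 and 0 of the 9 genes were called in the 5 comparisons, with FOXO3 lost after injury in CD44low Tregs (adjusted p = 0.0645), and 439 genes over the whole table there.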
